A study of Saccharomyces cerevisiae with 8 samples.

Results

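Cryptic unstable transcripts (CUTs) that were almost unseen in control cells were followed in budding yeast while the nuclear poly(A)-binding protein Nab2 was withdrawn from the nucleus. The group holds 343 of the 925 CUT features in a table of 7660 features. A CUT was included when its raw counts in both control libraries summed to under 5 and its total over all 8 libraries was 5 or more. Another 288 CUTs had 5 or more control counts, and 294 had a total too low to be included, of which 180 had no read anywhere. The control counts and the total chose the members, so their low control level is a description and not a result.

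CUTs are short noncoding RNAs made by RNA polymerase II, often from promoters that also fire in the opposite direction. In growing yeast the Nrd1-Nab3-Sen1 complex ends their transcription early. The TRAMP complex then adds a short poly(A) tail and the nuclear exosome degrades the RNA, so that CUTs are scarce unless this decay fails. Nab2 binds poly(A) tails in the nucleus and takes part in the packaging and export of mRNA. The CUTs carry a name and a feature number only, so neither their positions nor their sequences are given here.

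The Nab2 anchor-away strain (Y3284) carries tor1-1, a deletion of FPR1, RPL13A fused to 2 copies of FKBP12, and NAB2 fused to FRB. Rapamycin at 1 µg/ml joins the FRB and FKBP12 tags, and the tagged ribosomal protein carries Nab2 out of the nucleus. Total RNA was sequenced from untreated cells (0 min) and from cells treated for 15 or 30 min, in 2 biological replicates each. The control strain (Y2615) carries the same tor1-1, FPR1 and RPL13A alleles without the FRB tag on NAB2, and 2 replicates were taken after 30 min with rapamycin. No control library was sampled at 0 or 15 min, so anchoring and exposure to rapamycin cannot be told apart in the time course. The control is labelled MATa and the anchor-away strain MAT without a letter. The 5 genes specific to MATa cells that were measured summed to 269 to 304 CPM (read counts scaled to the size of the library) in the control libraries and to 10.7 to 40.7 CPM in the anchor-away libraries. The 4 genes specific to MATalpha cells summed to 49.2 to 52.2 CPM in the control and to 983 to 2410 CPM in the anchor-away libraries. Strain background therefore differs between the control and the anchor-away cells, and its part in the low control level of these CUTs was not tested.

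Library totals ran from 4832948 to 17023022 counts, with the 0 min libraries the deepest. In 3 libraries over 20% of all features had 0 counts: 15 min replicate 1 (24.4%), 30 min replicate 2 (28.2%) and control replicate 1 (28.2%), against 9.18% to 15.4% in the other 5. These 3 are called the sparse libraries below. The ratios of the summed levels, and some of the single CUTs that rest on them, are given with and without them. Levels are relative to the rest of the RNA in a library, so a gain of these CUTs and a loss of other RNA cannot be told apart. NAB2 mRNA itself was at 264 and 211 CPM untreated, then 164 and 174 after 15 min and 203 and 228 after 30 min, with no change that passed the test.

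Together the 343 CUTs had a summed CPM about 3 to 4 times as high after rapamycin as before it, a size that depends on the scaling. As a part of the plain library totals the ratios to 0 min were 2.77 at 15 min and 4.29 at 30 min. Scaled on snoRNA features they were 1.21 and 1.69. The summed raw counts of the 343 CUTs were 1208 and 1665 untreated, then 2785 and 1589 after 15 min and 4138 and 1650 after 30 min, beside 19 and 392 in the control. On the CPM scale the sums were 76.3 and 100.3 untreated, then 325.9 and 231.2 after 15 min and 354.4 and 319.0 after 30 min, beside 2.2 and 43.9 in the control. Every library after rapamycin in the anchor-away strain lay above both 0 min libraries, whereas the 15 and 30 min libraries overlapped. The exact binomial (Clopper-Pearson) 95% interval of each anchor-away sum had a half-width of at most 5.68% of its value, which covers counting error only. The group means were 88.3 ± 16.9 CPM at 0 min, 279 ± 67.0 at 15 min and 337 ± 25.0 at 30 min (mean ± SD, n = 2).

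**Figure D1:**
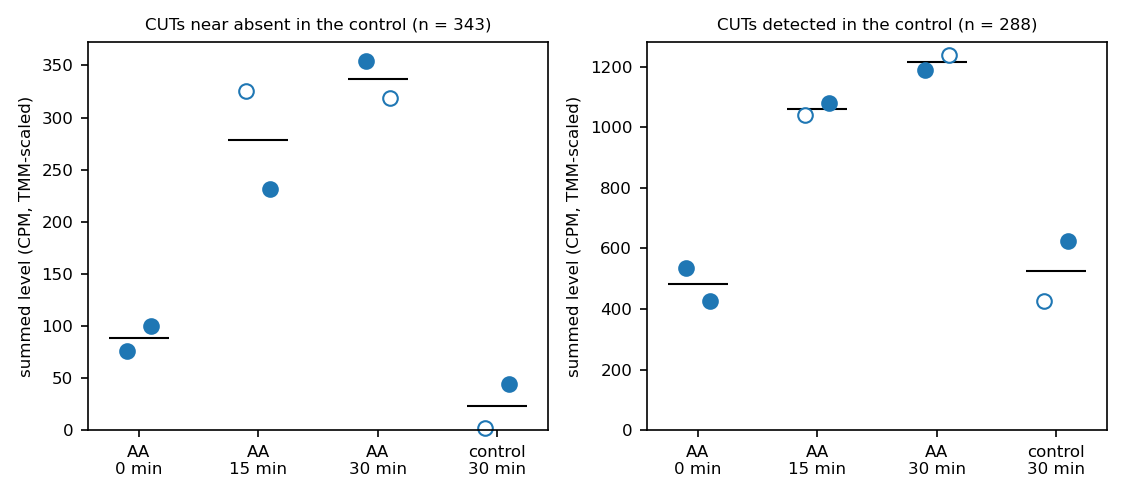
Summed level in CPM of the 343 CUTs near absent in the control (left) and the 288 CUTs detected in the control (right), by group, with 1 point per library and a line at the group mean. Open points are the 3 sparse libraries. The 4 anchor-away libraries after rapamycin lie above both 0 min libraries in both panels.

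The ratio of group means was 3.15 for 15 over 0 min and 3.81 for 30 over 0 min, and 1.21 for 30 over 15 min. Over single pairs of libraries it ran from 2.31 to 4.27, from 3.18 to 4.64 and from 0.979 to 1.53. The sums carry no p-value, because the members were chosen with results known, and 2 libraries against 2 could not go below an exact permutation p of 0.333. Without the 3 sparse libraries the ratios were 2.60, 3.96 and 1.52. Scaled on snoRNA features they were 1.21, 1.69 and 1.40, a setting that also moved the median log2 fold change of all features to -1.41 at 15 min and -1.26 at 30 min. Without the 5 members of highest total count the ratios were 2.86, 3.22 and 1.13, so the higher sums after rapamycin did not come from those 5 alone.

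The CUTs that were detected in the control also had a higher summed CPM after rapamycin. Their sums were 536 and 426 CPM untreated, then 1040 and 1080 after 15 min and 1190 and 1240 after 30 min, with ratios of 2.20 for 15 over 0 min and 2.53 for 30 over 0 min. The difference between these ratios and the 3.15 and 3.81 of the CUTs near absent in the control was not tested. The CUTs near absent in the control made up 12.4% and 19.0% of all CUT counts at 0 min, 23.8% and 17.6% at 15 min, and 22.7% and 20.5% at 30 min. These shares overlapped between 0 and 15 min. Between 0 and 30 min they did not overlap, but the gap was narrow, at 19.0% against 20.5%. The 20.5% is from the sparse 30 min replicate 2, where CUT201 alone held 328 of the members' 1650 counts. The shares were not taken without CUT201.

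Split by their control count, every stratum had a higher mean sum at 15 and 30 min than at 0 min. The 156 members with 0 control counts summed to 20.2 CPM at 0 min (library values 13.6 and 26.9), 98.0 at 15 min (76.0 to 120) and 107 at 30 min (94.4 to 120). Their ratios to 0 min were 4.84 and 5.31. The 64 members with 1 control count had ratios of 3.31 and 4.00, the 53 with 2 had 2.24 and 1.78, and the 39 with 3 had 2.46 and 2.81. Just inside the threshold, the 31 members with 4 control counts had ratios of 2.85 and 5.64. That last pair rests on CUT201 and CUT866, which both have 4 control counts: the other 29 had 2.01 and 2.43. The 98 CUTs with 5 to 9 control counts, just outside the threshold, had ratios of 2.69 and 3.09. The 138 with 10 to 49 had 1.89 and 2.33, and the 52 with 50 or more had 2.36 and 2.55. The order over the control counts was therefore not steady within the group or outside it, and no test was made of it.

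**Figure D2:**
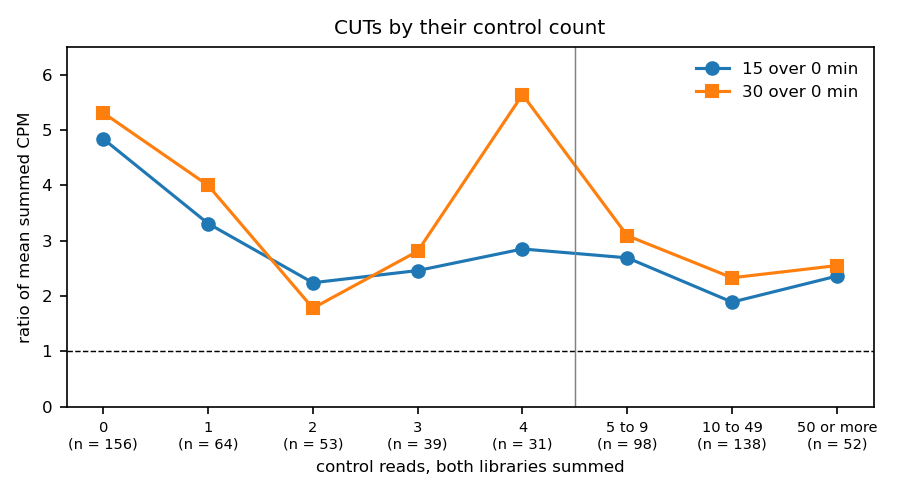
Ratio of the mean summed CPM at 15 min (circles) and 30 min (squares) to that at 0 min, for CUTs grouped by their control reads summed over both libraries. The vertical line marks the threshold of 5 control reads, and the dashed line a ratio of 1. All ratios are above 1, and the 30 min value at 4 control reads is 2.43 without CUT201 and CUT866.

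At the lower edge of the total, 22 members had exactly 5 counts over the 8 libraries, and 13 CUTs with under 5 control counts were left out with 4. The median member had 21 counts in all, with quartiles of 10 and 51.5 and a range from 5 to 602. The median member's CPM was below the level of 3 counts, 0.181 to 0.58 CPM, in every anchor-away library except 30 min replicate 1, where it was 0.6 CPM against 0.257.

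Of the anchor-away libraries that were not sparse, those after rapamycin showed more of the CUTs than those at 0 min. At least 1 read was found for 202 and 237 of the 343 at 0 min, while 15 min replicate 2 showed 246, 30 min replicate 1 showed 315 and control replicate 2 showed 180. Of the sparse libraries, 15 min replicate 1 showed 89, 30 min replicate 2 showed 53 and control replicate 1 showed 10. Over all features, too, 30 min replicate 1 had the smallest share at 0 counts, 9.18%. That share was 14.6% and 12.3% at 0 min and 12.9% in 15 min replicate 2. When every library was thinned to 4832948 counts, the expected numbers were 137 and 183 at 0 min, then 221 for 15 min replicate 2, then 294 for 30 min replicate 1, beside 123 for control replicate 2. The anchor-away libraries that were not sparse thus kept their order of 0, 15 and 30 min at equal depth, with 1 library each at 15 and 30 min. The choice of members enters this order: without 30 min replicate 1, 79 members would have had a total under 5. Of these 79, 19 had reads in that library only. For the members the sparse libraries gave 83.8 at 15 min and 53.0 at 30 min, below both 0 min libraries. A count of CUTs seen and a sum of their reads thus give opposite orders in them. For the CUTs detected in the control the expected numbers were 255 and 248 at 0 min, 270 for 15 min replicate 2 and 277 for 30 min replicate 1.

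**Figure D3:**
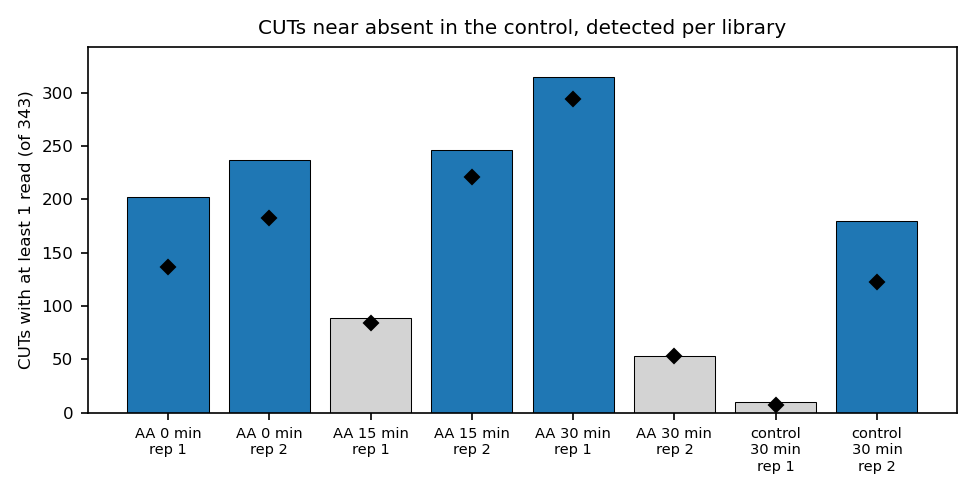
Number of the 343 CUTs with at least 1 read in each library (bars) and the number expected when every library is thinned to 4832948 counts (diamonds). Grey bars are the 3 sparse libraries. Among the other libraries 30 min replicate 1 is highest, with 315 observed and 294 expected. Without the reads of that library 79 of the CUTs would have had a total under 5.

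The same contrast shows in how the reads were spread. In 30 min replicate 2, the 5 most counted members held 43.9% of the members' reads and the 10 most counted held 64%. In 15 min replicate 1 these shares were 25.0% and 39.3%. In the 0 min libraries the top 5 held 11.3% and 8.29%, in 15 min replicate 2 13.9% and in 30 min replicate 1 14.7%. A member seen at all had a median of 20 reads in 15 min replicate 1 and 10 in 30 min replicate 2, against 4 and 5 at 0 min, 4 in 15 min replicate 2 and 8 in 30 min replicate 1. Over 50% of the reads of 206 members (60.1% of them) came from 1 library, most often 30 min replicate 1 (100 members) and 15 min replicate 1 (33 members). Of the CUTs detected in the control, 52 of 288 (18.1%) had over 50% of their reads in 1 library. The 60.1% and 18.1% are not like for like. The median member had 21 counts in all, and 79 members would have had a total under 5 without 30 min replicate 1. The CUTs detected in the control had to have 5 or more control counts.

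Replicates agreed little on which of these CUTs were high. Over the 343 members Spearman's rho between replicates was 0.36 at 0 min, 0.24 at 15 min and 0.19 at 30 min, and it was 0.39 between 15 min replicate 2 and 30 min replicate 1. Over the CUTs detected in the control the same pairs gave 0.67, 0.42, 0.46 and 0.72. These values are across CUTs that share their libraries and depths, and describe the spread only.

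The libraries that were not sparse were also set against 0 min one at a time, a view chosen after the data were seen. In 15 min replicate 2, 174 of 343 members (50.7%) lay above both 0 min libraries and 41 (12%) below both, where all features with a total of 5 or more gave 33.0% and 36.4%. In 30 min replicate 1, 253 members (73.8%) lay above both and 24 (7.0%) below both, where all features gave 41.2% and 38.2%. Both of these libraries were above both 0 min libraries for 146 members (42.6%), where all features gave 22.4%. These counts describe the members and are no measure of a change. A CUT with 0 counts in a 0 min library cannot lie below it, and 188 of the 343 members had such a 0, as had 23 of the 288 CUTs detected in the control. The choice of members also enters: without 30 min replicate 1, 79 members would have had a total under 5, 19 of them with reads in that library only, and without 15 min replicate 2, 17 would. The CUTs detected in the control gave 187 of 288 (64.9%) above both at 15 min, a larger share than the members, and 217 (75.3%) at 30 min. Among these 4 libraries, and under the same limits, a member's highest CPM was in 30 min replicate 1 for 199 members, in 15 min replicate 2 for 82, and in a 0 min library for 25 and 37. No share over all features was taken for this last set of counts.

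**Figure D4:**
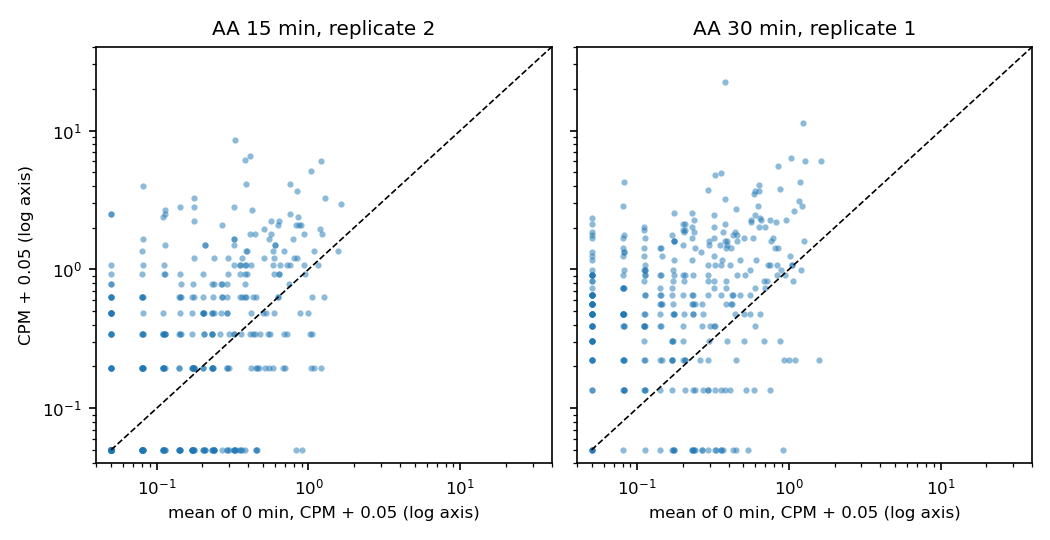
Level of each of the 343 CUTs (1 point each) in 15 min replicate 2 and in 30 min replicate 1, the anchor-away libraries after rapamycin that are not sparse, against its mean at 0 min, as CPM + 0.05 on log axes. The dashed line marks equal levels. More points lie above the line than below it, and more so at 30 min, where 253 CUTs exceed both 0 min libraries.

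With all 6 anchor-away libraries the picture for single CUTs was mixed. Both 15 min libraries lay above both 0 min libraries for 45 of 343 members (13.1%) and below both for 35 (10.2%), against 17.6% and 25.1% of all features. Both 30 min libraries lay above both 0 min libraries for 35 members (10.2%) and below both for 21 (6.12%), against 18.4% and 25.9%. From 15 to 30 min, 25 members (7.29%) were higher without overlap and 17 (4.96%) lower, against 17.2% and 20.1%. These shares are below the background in both directions, but a CUT at 0 in a sparse library cannot be higher in both libraries of that time, and a CUT at 0 in a 0 min library cannot be lower than it later. Of the CUTs detected in the control, 81 of 288 (28.1%) were higher without overlap at 15 min and 81 (28.1%) at 30 min, above the background. A member's mean was highest at 30 min for 163 CUTs, at 15 min for 125 and at 0 min for 55. No share over all features was taken beside these 3 counts, so they describe the members only. The choice of members enters them, as do single high libraries, since 206 members had over 50% of their reads in 1 library.

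No single member passed edgeR's quasi-likelihood test in any of the 3 comparisons of time points, at a Benjamini-Hochberg adjusted p under 0.05 over 6191 features. Only 92 of the 343 members passed the filter on low counts, which a CUT could do through 1 high group alone, so the count of 0 speaks for those 92. For 15 over 0 min 0.145% of all features were called higher and 0.0162% lower. For 30 over 0 min the shares were 0.501% and 2.26%, and for 30 over 15 min 0.0323% and 0.42%. At an unadjusted edgeR p under 0.05, 2 members were higher at 15 than at 0 min and 3 each at 30 than at 0 min and at 30 than at 15 min, of the 92. Over all features the shares higher were 2.67%, 4.05% and 3.12%. None of the 92 was lower at that threshold, where the shares of all features were 4.17%, 10.7% and 7.51%. DESeq2's Wald test called CUT201 and CUT866 for 30 over 0 min, the only members to which its own filter gave an adjusted p, and it gave none to any member in the other two comparisons. Its unadjusted p was under 0.05 for 8 members at 15 over 0 min, 10 at 30 over 0 min and 3 at 30 over 15 min. Of the 231 CUTs detected in the control that passed the filter, edgeR called 1 higher at 15 min and 2 higher at 30 min than at 0 min.

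CUT866 was the most counted member and had the lowest edgeR p of the members in both comparisons with 0 min. Its raw counts were 0 and 11 untreated, then 194 and 42 after 15 min and 263 and 88 after 30 min, beside 4 and 0 in the control. The CPM values were 0 and 0.662 untreated, then 22.7 and 6.11 after 15 min and 22.5 and 17.0 after 30 min. All 4 libraries after rapamycin were above both 0 min libraries. The edgeR estimate on the log2 scale was 5.39 ± 1.67 (SE) for 15 over 0 min, with an edgeR adjusted p of 0.367, and 5.84 ± 1.71 for 30 over 0 min, with an edgeR adjusted p of 0.0814. Without the sparse 15 min replicate 1 the 15 min estimate was 4.18, and without the sparse 30 min replicate 2 the 30 min estimate was 6.01. The 15 min comparison did not pass under 13 of 14 alternatives, and passed with no filter on low counts (edgeR adjusted p = 0.0447). The 30 min comparison did not pass under 10 of 15 alternatives. It passed with no filter on low counts (edgeR adjusted p = 0.00755) and with DESeq2 (adjusted p = 0.00039). It also passed without 0 min replicate 2, without control replicate 1 and without control replicate 2, fits that each left 1 library in a group. Without 0 min replicate 2, which held all 0 min reads of CUT866, the log2 estimate was 10.53.

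CUT090 was high in both 15 min libraries. It had 5 and 4 counts untreated, then 82 and 58 after 15 min and 55 and 7 after 30 min, beside 0 in both control libraries. Its levels were 9.60 and 8.44 CPM at 15 min against 0.316 and 0.241 at 0 min, and 4.71 and 1.35 at 30 min. The groups did not overlap at either time, and the log2 estimates were 4.96 ± 2.29 (edgeR adjusted p = 0.710) at 15 min and 3.40 ± 2.14 (edgeR adjusted p = 0.548) at 30 min. CUT137 had 3 and 1 counts untreated, then 67 and 15 after 15 min and 18 and 30 after 30 min, beside 0 and 2 in the control. All 4 of its libraries after rapamycin were above both at 0 min, with log2 fold changes of 5.20 ± 2.64 and 4.74 ± 2.59 that did not pass (edgeR adjusted p = 0.769 and 0.441). Without the sparse library of each time the estimates were 4.89 and 4.01 for CUT090 and 4.02 and 3.50 for CUT137. CUT145 likewise had 3 and 0 counts untreated, then 63 and 5 after 15 min and 14 and 22 after 30 min, again with no overlap.

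A further set of CUTs was highest in 30 min replicate 2. CUT201 had 7 and 15 counts untreated, then 0 and 7 after 15 min and 12 and 328 after 30 min, beside 0 and 4 in the control. That sparse library gave 87.9% of its reads and a level of 63.4 CPM, against 1.03 CPM in the other 30 min library, which is close to the 0.442 and 0.903 CPM of 0 min. Its log2 fold change at 30 min was 5.55 ± 1.98 (edgeR adjusted p = 0.169), and without that library it was 0.58. The 30 min comparison of CUT201 did not pass under 12 of 15 alternatives. It passed with no filter on low counts (edgeR adjusted p = 0.0149) and with DESeq2 (adjusted p = 0.00747). It also passed without 30 min replicate 1, which leaves the sparse library alone in its group. CUT101 showed the same form, with 4 and 0 counts untreated, then 0 and 1 after 15 min and 18 and 148 after 30 min, beside 0 in the control. Its 30 min levels were 1.54 and 28.6 CPM, and its log2 fold change over 0 min was 6.77 ± 2.66 (edgeR adjusted p = 0.218), or 3.48 without the sparse library. CUT271, CUT209, CUT907, CUT831 and CUT577 each took 50.0% to 67.9% of their reads from the same library. For these 5 the levels were 6.77 to 11.6 CPM in 30 min replicate 2 and 0.857 to 2.06 CPM in 30 min replicate 1.

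CUT577 was the only one of the named members with no read at 15 min. It had 7 and 6 counts untreated, then 0 and 0 after 15 min and 20 and 43 after 30 min, beside 0 in both control libraries. Against the limit of 3 counts over both 15 min libraries, its pooled level at 30 min was 19.2-fold higher. The 43 counts of that pool came from the sparse 30 min replicate 2. In 30 min replicate 1 its level was 1.71 CPM, where 3 counts in 15 min replicate 2 are 0.437 CPM. The log2 estimate for 30 over 15 min was 8.69 ± 3.73 and did not pass (edgeR adjusted p = 0.405). The sparse 15 min replicate 1 is 1 of the libraries at 0.

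The matching set at 15 min was high in 15 min replicate 1. CUT467 had 22 and 2 counts untreated, then 161 and 8 after 15 min and 16 and 0 after 30 min. CUT704 had 0 and 6 counts untreated, then 126 and 3 after 15 min and 29 and 0 after 30 min. CUT589 had 0 and 9 counts untreated, then 101 and 19 after 15 min and 28 and 0 after 30 min. In CUT704 and CUT589 both 15 min libraries were above both 0 min libraries, while in CUT467 15 min replicate 2, at 1.16 CPM, was below the 1.39 CPM of 0 min replicate 1. Their log2 fold changes at 15 min ran from 3.71 ± 2.50 in CUT467 to 5.30 ± 2.98 in CUT704, and the smallest edgeR adjusted p of these 3 was 0.851. Without that library they were 0.63 in CUT467, 1.25 in CUT704 and 3.33 in CUT589. CUT263, CUT280, CUT699, CUT755 and CUT787 also had most of their reads there, with 40 to 63 counts in that library against 1 to 19 in the other 15 min library. In CUT280, CUT755 and CUT787 that other library, at 2.04, 1.46 and 2.76 CPM, was also above both 0 min libraries. In CUT699, at 1.02 CPM, it was below the 1.52 CPM of 0 min replicate 1. In CUT263 it held 1 count, beside 0 and 2 counts at 0 min. That count is 0.146 CPM, below the 0.437 CPM of 3 counts in that library.

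**Figure D5:**
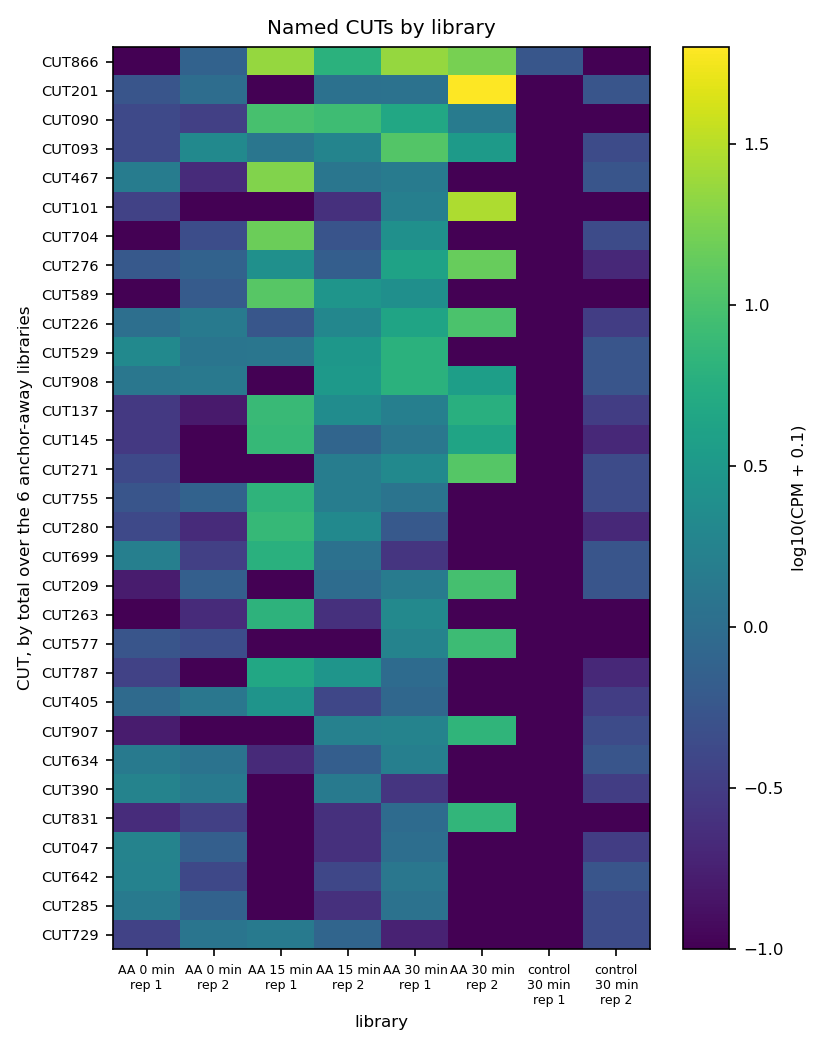
Level of the 31 named CUTs (rows, by total over the 6 anchor-away libraries) in each of the 8 libraries, as log10(CPM + 0.1). CUT866 is high in all 4 anchor-away libraries after rapamycin, while CUT201 and CUT101 are high in 30 min replicate 2 and CUT467 and CUT704 in 15 min replicate 1.

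Other well counted members were higher mainly at 30 min in both libraries. CUT276 had 0.506 and 0.662 CPM untreated, then 2.46 and 0.582 after 15 min and 4.03 and 13.9 after 30 min. CUT226 had 0.948 and 1.32 CPM untreated, then 0.468 and 1.89 after 15 min and 4.20 and 10.2 after 30 min. CUT093 had 0.316 and 2.05 CPM untreated, then 1.17 and 1.75 after 15 min and 11.2 and 3.29 after 30 min. In each of these 3 both 30 min libraries were above both 0 min libraries, and the 15 min libraries were not both above them. Their log2 fold changes at 30 min ran from 2.61 ± 2.25 in CUT093 to 3.91 ± 2.28 in CUT276, with edgeR adjusted p-values of 0.729 and 0.494. Without the sparse 30 min replicate 2 the log2 values were 2.74 in CUT276, 1.86 in CUT226 and 3.22 in CUT093.

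The members with the highest mean at 0 min were CUT529, CUT390, CUT908, CUT634 and CUT093, at 1.18 to 1.58 CPM. CUT529 had 2.02 and 1.14 CPM untreated, then 1.17 and 2.91 after 15 min and 6.0 and 0 after 30 min. CUT908 had 1.20 and 1.26 CPM untreated, then 0 and 3.20 after 15 min and 6.0 and 3.67 after 30 min, where both libraries were above those at 0 min. CUT634 had 1.33 and 1.08 CPM untreated, then 0.117 and 0.582 after 15 min and 1.54 and 0 after 30 min. CUT390 went the other way, with 27 and 22 counts untreated, then 0 and 9 after 15 min and 2 and 0 after 30 min, beside 0 and 2 in the control. Its levels were 1.71 and 1.32 CPM at 0 min and 0.171 and 0 CPM at 30 min, without overlap, and its log2 fold change was -3.79 ± 3.10 (edgeR adjusted p = 0.701), or -3.08 without the sparse 30 min replicate 2.

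Among other lower members, CUT047, CUT285, CUT634 and CUT642 were below both 0 min libraries in both 15 min libraries, with log2 fold changes from -3.84 ± 3.21 in CUT047 to -1.77 ± 2.80 in CUT634. CUT405, CUT699 and CUT729 were below both 0 min libraries in both 30 min libraries. Each of these 7 had 0 counts in 30 min replicate 2, and CUT047, CUT285 and CUT642 had 0 in 15 min replicate 1 as well. Some gaps were small. In 30 min replicate 1 CUT405 was at 0.771 CPM, against 0.822 in 0 min replicate 1. In the same library CUT699 was at 0.171 CPM, against 0.241 in 0 min replicate 2. In 15 min replicate 2 CUT642 was at 0.291 CPM, against 0.301 in 0 min replicate 2. CUT047, CUT285 and CUT642 were below 3 counts (0.437 CPM) in 15 min replicate 2, as were CUT699 and CUT729 (0.257 CPM) in 30 min replicate 1. The edgeR adjusted p-values of the 7 in the comparisons named were 0.743 or higher. Without the sparse library of the time compared, the log2 values ran from -2.87 in CUT047 to -1.01 in CUT634 at 15 min and from -2.89 in CUT729 to -0.41 in CUT405 at 30 min.

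Of the 343 members, 59 had no read in either 0 min library, and 45 of these had none in the control either. In 31 of the 59 the reads came from 1 library after rapamycin, and in 28 from at least 2. Reads in 3 of the 4 libraries after rapamycin were found for 6 of them, named here after their values were seen. CUT307 had 8 and 3 counts at 15 min and 6 and 0 at 30 min, CUT716 had 3 and 2 and then 7 and 0, CUT196 had 11 and 1 and then 3 and 0, and CUT068 had 1 and 4 and then 2 and 0. CUT046 had 0 and 4 counts at 15 min and 4 and 41 at 30 min, and CUT768 had 0 and 1 and then 3 and 57. None had reads in all 4. Reads at 0 min and none in the 4 anchor-away libraries after rapamycin were found for 12 members. The 59 and the 12 cannot be compared. With under 5 control counts and a total of 5 or more, a member unseen at 0 min must have reads after rapamycin. The 59 also needed 0 counts in 2 libraries and the 12 in 4, and no share over all features was taken.

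Reads in all 6 anchor-away libraries were found for 10 members, also named after their values were seen: CUT090, CUT093, CUT129, CUT137, CUT167, CUT226, CUT276, CUT433, CUT619 and CUT763. CUT433 had 8 and 11 counts untreated, then 11 and 14 after 15 min and 42 and 29 after 30 min, in a direction that both replicates shared at 30 min. CUT129 had 12 and 7 counts untreated, then 5 and 15 after 15 min and 27 and 3 after 30 min, and CUT763 had 3 and 8, then 14 and 9, then 6 and 4. CUT167 had 3 and 15 counts untreated, then 20 and 8 after 15 min and 8 and 9 after 30 min. CUT619 had 1 and 7 counts untreated, then 24 and 1 after 15 min and 9 and 86 after 30 min. The 0 min libraries are the deepest, so these raw counts do not give the direction. On the CPM scale CUT433 and CUT763 were above both 0 min libraries in both libraries of each later time. That held for CUT167 at 15 min only, for CUT619 at 30 min only and for CUT129 at neither time. At 30 min CUT763 was at 0.514 and 0.773 CPM, against 0.19 and 0.482 at 0 min.

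Genes of CUT termination, nuclear and cytoplasmic RNA decay and mRNA 3' ends were taken as 28 genes in 6 groups, all of which were measured. Of the termination complex, NRD1, which encodes an RNA-binding subunit, rose. Its levels were 142 and 107 CPM untreated, then 341 and 335 after 15 min and 484 and 520 after 30 min, with log2 fold changes over 0 min of 1.44 ± 0.26 (edgeR adjusted p = 0.0275) and 2.01 ± 0.26 (edgeR adjusted p = 0.000879). The other two genes of the complex, NAB3 and SEN1, did not pass at either time, and NAB3 had log2 fold changes of -0.95 ± 0.25 and -0.53 ± 0.25. At 15 min NAB3 passed with total library size (-1.12, edgeR adjusted p = 0.0337) and with DESeq2 (-0.88, adjusted p = 0.0419). Of the 5 TRAMP genes TRF5, which encodes a poly(A) polymerase, rose, from 32.9 and 35.5 CPM at 0 min to 160 and 96.2 CPM at 15 min and 153 and 160 CPM at 30 min (edgeR adjusted p = 0.0339 and 0.00411). PAP2, which encodes the other TRAMP polymerase, did not pass (log2 fold change 0.11 at 15 min and -0.22 at 30 min).

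None of the 10 core exosome genes or the 3 genes of its nuclear cofactors passed at either time, with group medians of -0.34 and -0.72 at 15 min and -0.56 and -0.21 at 30 min on the log2 scale, beside -0.06 and -0.05 for all features. The nearest was MTR3, a core subunit gene, at 63.1 and 56.6 CPM at 0 min and 20 and 18.2 CPM at 30 min, a log2 estimate of -1.65 ± 0.44 (edgeR adjusted p = 0.0538). It passed with DESeq2 (adjusted p = 0.0151), with no filter on low counts (edgeR adjusted p = 0.0476), without the 3 sparse libraries (edgeR adjusted p = 0.0425) and with snoRNA scaling (edgeR adjusted p = 0.0442). RRP6, the nuclear exonuclease of the exosome, had log2 fold changes of -0.72 and -0.21. Of 4 genes of poly(A) tails and mRNA 3' ends HRP1, a subunit gene of a cleavage factor, rose, from 410 and 415 CPM at 0 min to 1140 and 1010 CPM at 15 min and 1250 and 1230 CPM at 30 min (edgeR adjusted p = 0.0250 and 0.00251), and none of 3 genes of cytoplasmic decay passed. Between 15 and 30 min none of the 28 genes passed. With snoRNA scaling the log2 fold changes of NRD1, TRF5 and HRP1 were 0.07, 0.50 and 0.01 at 15 min and 0.86, 1.05 and 0.42 at 30 min, and none passed. Without 15 min replicate 1 none of these 3 passed at 15 min (edgeR adjusted p = 0.349, 0.674 and 0.405). Without the 3 sparse libraries none passed at 15 min either (edgeR adjusted p = 0.115, 0.079 and 0.2 for NRD1, TRF5 and HRP1). The 15 min call was also lost for NRD1 without 0 min replicate 2 (edgeR adjusted p = 0.0827) or 15 min replicate 2 (edgeR adjusted p = 0.0731), for HRP1 without 15 min replicate 2 (edgeR adjusted p = 0.057), and for TRF5 without 0 min replicate 1 (edgeR adjusted p = 0.146) or with total library size (edgeR adjusted p = 0.0524).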

How the data were processed

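RNA-seq counts were analysed for 8 libraries in 4 groups of 2 biological replicates, grouped by the sample descriptions. For 30 min replicate 2 the title says 3 and the description 2, and the description was followed. The values are raw read counts per feature as the authors deposited them. Build R64, bedtools 2.17.0, HTSeq 0.5.3 and GSNAP appear in the submitters' processing notes, without a counting rule, so same-strand transcripts that overlap a CUT may share its reads. Spike-in RNA of fission yeast was added per the labels' protocols, and 0 of its features are in the table.

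From 7711 rows, 29 exact repeats and 22 entries that repeat a gene already listed were removed. Counts were tested with edgeR 4.0.16 in R 4.3.3 (filterByExpr, TMM factors, glmQLFit with robust estimation, 1 term per group, 4 residual degrees of freedom), 2-sided, with Benjamini-Hochberg adjustment over 6191 features. The biological coefficient of variation was 0.611. SE values are the log2 fold change divided by the root of the test's F value. CPM are counts scaled to the TMM-adjusted library total. Alternatives used DESeq2 1.42.0, other scalings, no filter, a replicate block and left-out libraries. Thinned numbers are hypergeometric expectations.

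The members and lists were chosen with earlier results of these data known. Named CUTs are those called in a comparison, the 10 of highest total in the anchor-away libraries, the 5 largest non-overlapping changes each way among filtered members per comparison, and the 5 highest at 0 min.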

Additional observations from a re-analysis of the deposited data

How the results depend on the processing

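The count of members called was 0 in each comparison under RLE factors, total library size, snoRNA scaling, the replicate block, the 5 libraries that were not sparse, and the other thresholds of the rule. With no filter on low counts it was 1 for 15 over 0 min (CUT866), 2 for 30 over 0 min (CUT201 and CUT866) and 1 for 30 over 15 min (CUT201). DESeq2 gave 2 for 30 over 0 min and no adjusted p for any member in the other two comparisons. Leaving out 1 library at a time gave 0 for 15 over 0 min and from 0 to 1 for each of the other two comparisons, where the 1 was CUT866 without 0 min replicate 2 or without either control library, and CUT201 without 30 min replicate 1 or, for 30 over 15 min, without 0 min replicate 2. The cause was not tested. Where 1 library of a group was left, it was assumed to vary like the other groups.

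The ratio of summed levels for 15 over 0 min was 1.21 under snoRNA scaling against 3.15, and for 30 over 0 min 1.69 against 3.81. Under the other alternatives it stayed between 2.60 and 3.72 for 15 over 0 min, between 3.22 and 4.38 for 30 over 0 min, and between 1.05 and 1.55 for 30 over 15 min, with 1.40 under snoRNA scaling. Leaving out 1 anchor-away library at a time gave 2.67 to 3.72, 3.57 to 4.38 and 1.08 to 1.51.

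Replicate numbers are not stated to mark a shared culture or day. The correlations of the replicate differences between groups ran from -0.263 to 0.11, so the samples were not treated as paired. With the replicate block 0 members were called in each comparison, and over all features the block called 17 at 15 min and 179 at 30 min against 10 and 171. Over all features DESeq2 called 58, 317 and 160 in the 3 comparisons, no filter 75, 318 and 133, and snoRNA scaling 0, 190 and 0, against 10, 171 and 28. Of the changes in single named CUTs across alternatives, 12 passed only under an alternative and 1292 kept their side of the threshold. Depth limits single members: 3 counts are 0.181 to 0.58 CPM in the anchor-away libraries.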
